A study of Mus musculus with 25 samples.

Results

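The genes described here encode the Fc receptors of mouse microglia and their signalling chain. There are 6 of them, *Fcgr1*, *Fcgr2b*, *Fcgr3*, *Fcgr4*, *Fcer1g* and *Fcrls*, chosen by name, out of 43411 gene identifiers in the count table. Each passed the filter on low counts and was tested together with 12908 genes in all.

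Fc receptors sit on the surface of microglia and macrophages and bind the constant part of IgG antibodies. *Fcgr1* (the high-affinity receptor CD64), *Fcgr3* (CD16) and *Fcgr4* are activating receptors, which need the common gamma chain encoded by *Fcer1g* to reach the surface and to signal through its ITAM motif to the kinase Syk. *Fcgr2b* (CD32B) is the inhibitory member, which carries its own ITIM motif and recruits phosphatases. *Fcrls* is a relative of unknown ligand that belongs to the microglial signature, and interferon gamma is the classical inducer of *Fcgr1*.

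The libraries were made from low amounts of RNA of microglia, sorted as CD11b-positive, CD45-intermediate cells from the brains of mice 3 months old. All 23 mice carried at least 1 floxed *Bin1* allele, of the line B6.129S6-Bin1tm2Gcp/J. The homozygous group held 10 mice (5 females and 5 males) with *Bin1* flox/flox and *Thy1-Cre*+. The heterozygous group held 7 mice (4 females and 3 males) with *Bin1* flox/wt and *Thy1-Cre*+, and the WT group 6 mice (2 females and 4 males) with *Bin1* flox/wt and no Cre transgene, so the WT mice were not free of the floxed allele. The Cre line was FVB/N-Tg(Thy1-cre)1Vln/J, which the paper used to delete *Bin1* after birth in excitatory neurons of the forebrain. Whether Cre acted in the sorted microglia was not tested. A total of 25 mice were labelled, and the 2 without a column in the table were not analysed here.

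Several facts of the whole series bear on the receptors. Library totals ran from 10812969 to 16734846 counts (median 13477985), and levels are given as CPM, the counts scaled to the library totals after correction by the TMM factor of each library. *Bin1* itself was at 699 ± 88.3 CPM (SD, n = 6) in WT, 692 ± 40.6 (n = 7) in heterozygous and 481 ± 130.2 (n = 10) in homozygous microglia, and was lower in homozygous than in WT mice by 0.60 on the log2 scale (log2 fold change -0.60, SE 0.12, edgeR adjusted p = 0.0017). WT and heterozygous animals had numbers in the 02xx range, 6 homozygous mice were in the 03xx and 4 in the 04xx range, so genotype and animal-number range cannot be told apart. The homozygous mice F1, F2, M1 and M2 stood apart with 824 to 1459 CPM of the immediate-early gene *Fos*, against 0.36 to 6.999 CPM in the other 6 homozygous mice, and the results below are given with and without them where that mattered. Before sorting, all cells were incubated with an Fc blocking antibody against the proteins of *Fcgr3* and *Fcgr2b*, equally in all groups, and the counts measure RNA and not surface protein.

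*Fcgr1* lies on chromosome 3 (GRCm38, chr3:96282909-96293969, minus strand, ENSMUSG00000015947.8) and *Fcrls* on the same chromosome (chr3:87250758-87263738, minus, ENSMUSG00000015852.11). The other 4 genes lie close together on chromosome 1. They are *Fcgr2b* (chr1:170958617-170976547, minus, ENSMUSG00000026656.13), *Fcgr4* (chr1:171018920-171029761, plus, ENSMUSG00000059089.4), *Fcgr3* (chr1:171051174-171064935, minus, ENSMUSG00000059498.11) and *Fcer1g* (chr1:171229572-171234365, minus, ENSMUSG00000058715.9). *Fcgr2b* and *Fcgr4* are 42.4 kb apart and *Fcgr4* and *Fcgr3* 21.4 kb.

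The promoters of *Fcgr4* and *Fcgr1* are printed because these were the receptors that passed the test between homozygous and WT mice, in opposite directions. Each is the 250 bases before the RefSeq start (GRCm38.p6), 5′ to 3′ on the strand of the gene, at chr1:171018676-171018925 (plus) for *Fcgr4* and chr3:96293970-96294219 (minus) for *Fcgr1*. Capitals mark matches, on either strand, to a gamma-activated site (GAS, TTCNNNGAA), an interferon-stimulated response element (ISRE-type, GAAA, any 2 bases and GAAA) or the core of PU.1 sites (AGAGGAAG).
Fcgr4: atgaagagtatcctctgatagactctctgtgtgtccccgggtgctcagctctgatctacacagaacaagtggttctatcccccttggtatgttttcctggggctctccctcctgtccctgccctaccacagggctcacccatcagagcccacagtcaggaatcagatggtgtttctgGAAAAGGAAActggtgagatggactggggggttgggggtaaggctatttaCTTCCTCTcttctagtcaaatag
Fcgr1: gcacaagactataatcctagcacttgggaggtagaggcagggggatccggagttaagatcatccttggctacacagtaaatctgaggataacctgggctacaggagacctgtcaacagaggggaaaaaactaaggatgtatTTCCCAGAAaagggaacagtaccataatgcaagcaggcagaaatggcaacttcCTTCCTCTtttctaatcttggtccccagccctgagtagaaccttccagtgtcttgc
The *Fcgr4* window held the ISRE-type letters, starting 73 bases before the start, and the *Fcgr1* window held the GAS letters, 109 bases before it. GAS letters occurred in 7.02% and ISRE-type letters in 2.98% of 32851 RefSeq promoter windows of the same length. PU.1 is a transcription factor of the myeloid lineage. Its core letters stood in both windows on the strand not printed, 23 bases before the start in *Fcgr4* and 56 bases in *Fcgr1*. They were found in 3.67% of all windows, and also in those of *Fcgr3* and *Fcrls*. No matches overlapped each other in the printed windows. These are matches of letters and do not show binding.

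The order of the receptor levels was set by comparing CPM per kb of exon, since longer transcripts collect more reads. In WT microglia, *Fcrls* was at 1184 ± 161 CPM per kb (SD, n = 6), *Fcgr3* at 1080.3 ± 59.7 and *Fcer1g* at 1030.4 ± 33.9. These 3 levels overlapped between mice. *Fcgr1* followed at 152 ± 8.81 CPM per kb, the inhibitory *Fcgr2b* at 59.7 ± 4.49 and *Fcgr4* at 4.10 ± 0.66, and the WT ranges of these genes did not overlap. *Fcgr3* therefore made up 83.3% ± 0.51 of the summed per-kb level of the 4 *Fcgr* genes in WT mice, *Fcgr1* 11.8% ± 0.31, *Fcgr2b* 4.61% ± 0.26 and *Fcgr4* 0.32% ± 0.065.

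**Figure D1:**
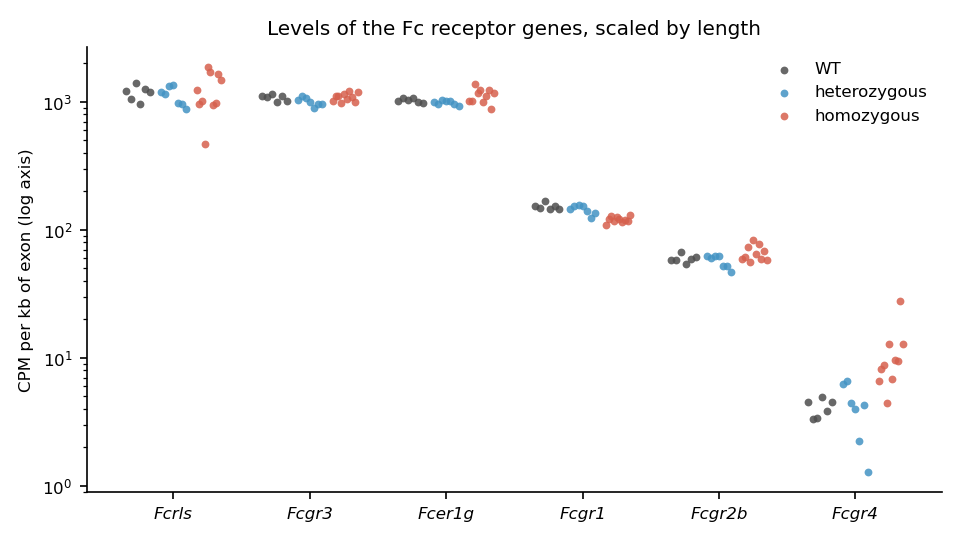
Level of each gene in CPM per kb of exon (log axis), 1 point per mouse, coloured by genotype. *Fcrls*, *Fcgr3* and *Fcer1g* have the highest levels, *Fcgr1* and *Fcgr2b* lie below them and *Fcgr4* lowest, and the order of the last 3 is the same in all 3 genotypes.

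The question of the first comparison was whether loss of *Bin1* in neurons changed these transcripts in microglia. Between homozygous and WT mice, *Fcgr4* was higher and *Fcgr1* lower, while the other 4 genes did not pass the test (edgeR's quasi-likelihood test, adjusted p below 0.05 over 12908 genes). That is 1 of 6 genes higher and 1 of 6 lower, where 5.66% of all genes tested were higher and 7.09% lower. Only *Fcgr4* also exceeded the study's 1.5-fold limit for a differentially expressed gene (DEG), which 3.4% of the genes tested met. At an unadjusted p under 0.05 the count stayed at 2 of 6, where 27.1% of all genes tested (3496) were under it. Scaling set the balance of the calls over all genes: 730 of 1645 called genes were higher with TMM, and 1772 of 2340 with library totals alone, where the median log2 fold change of all genes was 0.11 in place of 0.012. With totals alone *Fcgr1* was at -0.24 and still passed, and *Fcgr2b* (0.23, adjusted p = 0.038) and *Fcer1g* (0.21, adjusted p = 0.044) passed as well.

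*Fcgr4*, an activating receptor for IgG2a and IgG2b, was the scarcest of the 6 genes and changed most. Its lowest, median and highest levels were 4.18, 5.28 and 6.18 CPM in the 6 WT mice, 1.61, 5.33 and 8.25 CPM in the 7 heterozygous mice and 5.61, 11.5 and 35.0 CPM in the 10 homozygous mice. These levels rested on 57 to 84 counts per mouse in WT and 92 to 479 in homozygous microglia. All homozygous mice but F4 were above every WT and every heterozygous mouse, F4 lay within the WT range, and M4 was far above the rest. *Fcgr4* rose 2.63-fold from WT to homozygous mice (log2 fold change 1.39, SE 0.33, edgeR adjusted p = 0.0075). Without M4 the log2 fold change was 1.07 (adjusted p = 0.012).

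The rise of *Fcgr4* was present in both ranges of animal numbers. The 6 homozygous mice of the 03xx range had 10.4 ± 1.62 CPM of *Fcgr4* (SD) and the 4 of the 04xx range 18.2 ± 12.2 CPM, against 5.15 ± 0.83 CPM in WT (n = 6). Against WT, the log2 fold change was 0.97 (edgeR adjusted p = 0.021) for the former and 1.82 (adjusted p = 0.0082) for the latter. The heterozygous mice were kept in each of these fits. Without the 4 mice of high *Fos* the log2 fold change was 1.63 (adjusted p = 0.0078).

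*Fcgr1*, which binds single IgG molecules with high affinity, moved the other way and by less. Its lowest, median and highest levels were 377, 389 and 438 CPM in WT, 322, 379.7 and 402 CPM in heterozygous and 282, 313 and 338 CPM in homozygous mice. Every homozygous mouse was below every WT mouse, and 7 of the 10 were below all 13 mice of the other groups. The share of all genes tested that separate the genotypes in this way is not given. The same holds for the other genes and ratios described by overlap between these groups. *Fcgr1* was 1.27-fold lower in homozygous than in WT mice (log2 fold change -0.34, SE 0.056, edgeR adjusted p = 0.00042). The difference was near the same in the 03xx mice (-0.36, adjusted p = 0.0015), the 04xx mice (-0.32, adjusted p = 0.015) and without the 4 mice of high *Fos* (-0.32, adjusted p = 0.0043). It passed a test against no change and not a test against a change of 1.2-fold (adjusted p = 0.36), which *Fcgr4* did pass (adjusted p = 0.044).

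**Figure D2:**
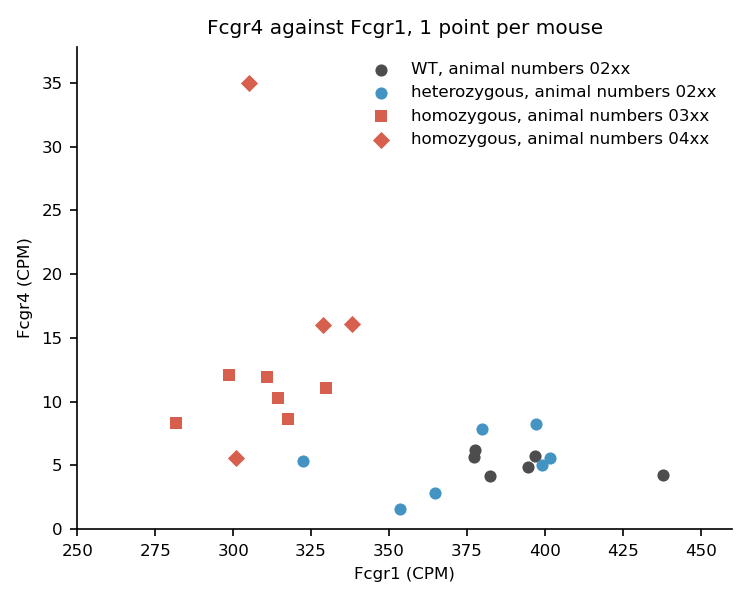
*Fcgr4* against *Fcgr1*, both in CPM, 1 point per mouse, with colour for the genotype and shape for the range of animal numbers. The homozygous mice lie at 282 to 338 CPM of *Fcgr1*, left of all WT mice (377 to 438 CPM), and 9 of the 10 lie above all other mice in *Fcgr4*.

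*Fcgr2b*, the inhibitory receptor, had 313, 339.9 and 390.2 CPM as its lowest, median and highest levels in WT mice, 273, 346 and 362 CPM in heterozygous mice and 325, 367 and 480.5 CPM in homozygous mice. The groups overlapped, with 4 of the 10 homozygous mice above all WT mice. The log2 fold change from WT to homozygous was 0.13 (SE 0.084, edgeR adjusted p = 0.34).

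*Fcgr3*, the most abundant of the 4 IgG receptors, ranged from 1742 through a median of 1900.2 to 2008 CPM in WT, from 1565 through 1738 to 1916 CPM in heterozygous and from 1710.0 through 1905 to 2115 CPM in homozygous mice. The homozygous values spread over the whole WT range and to either side of it. Its log2 fold change from WT to homozygous was 0.0081 (SE 0.057, adjusted p = 0.95), with an approximate 95% interval of -0.10 to 0.12.

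*Fcer1g*, the shared signalling chain, was at 864, 897 and 935 CPM (lowest, median, highest) in WT, at 817, 865 and 909 CPM in heterozygous and at 769.8, 1001 and 1214 CPM in homozygous mice. The homozygous group was the widest, with 6 mice above all WT mice and 1 below all of them. Its log2 fold change from WT to homozygous was 0.11 (SE 0.071, adjusted p = 0.33).

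*Fcrls*, the signature gene, gave 2237, 2821 and 3295 CPM (lowest, median, highest) in WT, 2049.5, 2671 and 3176 CPM in heterozygous and 1103, 2642 and 4352 CPM in homozygous mice. The homozygous mice ran past the WT range at both ends, with 4 mice above and 2 below it. The log2 fold change was 0.059 (SE 0.19, adjusted p = 0.89). The mouse at the low end was F4, which also had the lowest *Fcgr4* (5.61 CPM) and *Fcgr2b* (325 CPM) of the homozygous group but 1023 CPM of *Fcer1g*, above all WT mice.

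**Figure D3:**
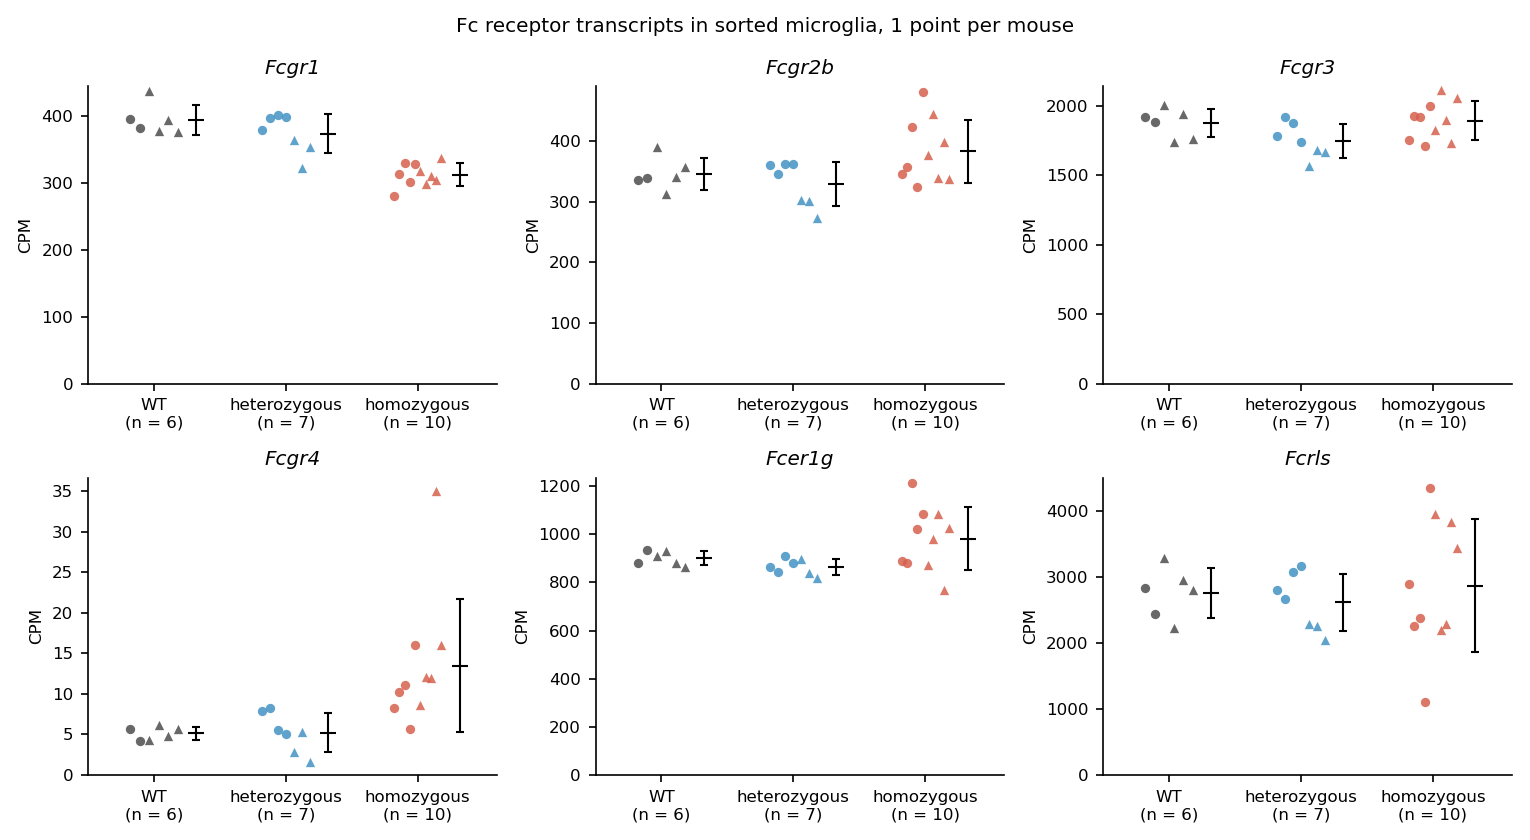
CPM of each of the 6 genes by genotype, 1 point per mouse, with the group mean and SD beside the points (n = 6 WT, 7 heterozygous and 10 homozygous mice). *Fcgr4* is raised in the homozygous mice, *Fcgr1* is lowered, and the homozygous mice spread more widely than the others for *Fcer1g* and *Fcrls*.

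Homozygous and heterozygous mice both carry *Thy1-Cre* and differ in the second floxed allele. This comparison shares the homozygous mice with the first. *Fcgr4* was 2.53-fold higher (log2 fold change 1.34, SE 0.32, edgeR adjusted p = 0.0047) and *Fcgr1* 1.19-fold lower (-0.25, SE 0.053, adjusted p = 0.0016) in the homozygous mice. *Fcgr2b* (0.23, SE 0.080, adjusted p = 0.043) and *Fcer1g* (0.19, SE 0.068, adjusted p = 0.046) were higher and near the limit, whereas *Fcgr3* (0.12, adjusted p = 0.11) and *Fcrls* (0.13, adjusted p = 0.65) did not pass. So 3 of 6 were higher and 1 of 6 lower, where 11.1% of all genes tested were higher and 11.7% lower, and 1 of 6 was a DEG, where 6.62% of the genes were.

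The calls of *Fcgr2b* and *Fcer1g* against the heterozygous mice depended on the tool, the scaling and single mice. Over 14 alternatives *Fcgr2b* passed in 7 and *Fcer1g* in 6, and *Fcer1g* missed the limit by limma-voom (adjusted p = 0.054) and with upper-quartile scaling (adjusted p = 0.058). When each of the 23 mice was left out in turn, *Fcgr2b* passed in 12 of 23 fits (log2 fold change 0.19 to 0.26, edgeR adjusted p = 0.020 to 0.12) and *Fcer1g* in 8 of 23 (0.15 to 0.22, adjusted p = 0.013 to 0.088). Their p-values were highest without heterozygous M4 for *Fcgr2b* and without homozygous F3 for *Fcer1g*. *Fcgr4* and *Fcgr1* passed in all 23 fits, in this comparison and against WT.

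Heterozygous and WT mice differ in the Cre transgene, and this comparison shares its WT mice with the first. None of the 6 genes passed, at a background of 0% of genes higher, 0% lower and 0% DEGs in edgeR. None reached an unadjusted p under 0.05, whereas 998 of all genes did, and DESeq2 called 3 genes and limma-voom 0, none of them among the 6. The log2 fold change of *Fcgr1* was -0.089 (SE 0.061, adjusted p = 0.76), with an approximate 95% interval of -0.21 to 0.032, and that of *Fcgr4* was 0.053 (SE 0.37, adjusted p = 0.98), with an interval of -0.67 to 0.77. For *Fcgr4* the interval is wide enough to hold a change of 1.5-fold in either direction.

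**Figure D4:**
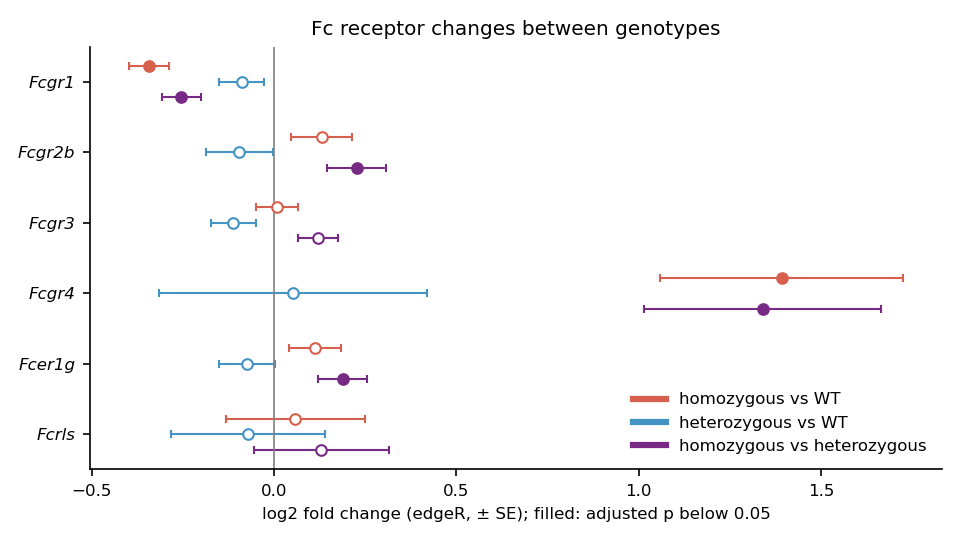
Log2 fold change of each gene in the 3 genotype comparisons, with the SE as bars and filled points where the edgeR adjusted p was below 0.05. *Fcgr4* (1.39 and 1.34) and *Fcgr1* (-0.34 and -0.25) are filled in both comparisons of the homozygous mice, and no point is filled for heterozygous against WT.

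None of the 6 genes passed between males and females in edgeR, and none had an unadjusted p under 0.05, where 0.0852% of all genes tested passed after adjustment. The other tools were not run on this term. In males, *Fcgr4* (log2 fold change 1.67, SE 0.37, adjusted p = 0.0099) and *Fcgr1* (-0.34, SE 0.067, adjusted p = 0.0052) passed between homozygous and WT mice, as did 6.06% of all genes tested (782). In females, with 2 WT mice, where 0.457% of the genes (59) passed, they were 1.05 (SE 0.48, adjusted p = 0.30) and -0.32 (SE 0.083, adjusted p = 0.075). The difference between the sexes was -0.62 (SE 0.58, adjusted p = 0.995) for *Fcgr4* and 0.013 (SE 0.11, adjusted p = 0.997) for *Fcgr1*. By edgeR it passed for 0% of all genes, 644 of which had an unadjusted p under 0.05, none of them among the 6. DESeq2 and limma-voom were not run on it.

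Ratios between the receptors within a mouse do not depend on how libraries are scaled. The log2 ratio of *Fcgr1* to *Fcgr2b* per kb, an activating over the inhibitory receptor, was 1.24 to 1.43 in WT (mean 1.35 ± 0.07 SD), 1.24 to 1.53 in heterozygous (1.35 ± 0.10) and 0.59 to 1.17 in homozygous mice (0.88 ± 0.19). The homozygous mice did not overlap either of the other groups, and the mean ratio went from 2.55 in WT to 1.84. *Fcgr4* to *Fcgr1* moved from -5.23 ± 0.29 in WT and -5.30 ± 0.80 in heterozygous to -3.66 ± 0.69 in homozygous mice. As shares of the summed per-kb level of the 4 *Fcgr* genes, *Fcgr1* went from 11.4 to 12.1% in WT to 8.13 to 10.0% in homozygous mice, and *Fcgr4* from a mean of 0.32% to 0.84% ± 0.54. *Fcgr3* stayed the bulk of the sum, at 84.6% ± 1.04 in homozygous mice. The sum of the 3 activating receptors over *Fcgr2b* was 4.37 ± 0.083 on the log2 scale in WT and 4.22 ± 0.17 in homozygous mice, and these ranges overlapped. *Fcer1g* over that sum was -0.26 ± 0.092 in WT and -0.13 ± 0.18 in homozygous mice, also with overlap.

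Other genes of the pathway were read from lists chosen with earlier results known, beside all genes tested, of which 730 were higher and 915 lower in homozygous than in WT mice, with a median log2 fold change of 0.012. Over the same genes, 27.1% had an unadjusted p under 0.05, DESeq2 called 1944 and limma-voom 1685, and the counts of each list are to be read against these. Of 13 relatives of the Fc receptors, 4 were tested and none passed in edgeR, DESeq2 or limma-voom (2 at an unadjusted p under 0.05, median 0.029). These were *Fcgrt* (171.7 CPM in WT and 148 CPM in homozygous mice, -0.21, SE 0.084, adjusted p = 0.11), the recycling receptor that protects IgG from degradation, *Trim21* (0.084, adjusted p = 0.59), the receptor of antibodies in the cytosol, *Fcrl1* (-0.026, adjusted p = 0.97) and *Fcrlb* (1.00, adjusted p = 0.13). *Fcrlb*, at 0.78 CPM in WT and 1.54 CPM in homozygous mice, passed against the heterozygous mice (1.58, adjusted p = 0.011). The IgE receptor chains *Fcer1a* and *Ms4a2* were listed at 0 in all mice.

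Among 8 receptors that use the gamma chain, 3 were tested and 1 passed. *Lilra5*, an activating receptor that pairs with *Fcer1g*, had 4.84, 5.53 and 8.55 CPM (lowest, median, highest) in WT, a mean of 6.10 ± 2.11 CPM in heterozygous and 10.6, 22.2 and 37.9 CPM in homozygous mice. The homozygous mice were all above the WT mice (log2 fold change 1.88, SE 0.25, edgeR adjusted p = 9.0e-05). *Pira2* (-0.30, adjusted p = 0.75) and *Clec4n* (0.10, adjusted p = 0.95) were at low levels, with means at or below 3.08 CPM in every group. Between homozygous and heterozygous mice, edgeR and DESeq2 each called 1 of the 3 and limma-voom 2.

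Of 5 other ITAM adaptors, 3 were tested and none passed in edgeR (1 at an unadjusted p under 0.05, median -0.028). *Tyrobp*, the adaptor of Trem2, was at 1080.1 ± 92.5 CPM in WT and 1071 ± 98.7 CPM in homozygous mice (-0.028, SE 0.066, adjusted p = 0.84), and *Hcst* was at -0.019 (adjusted p = 0.95). *Cd79b* was at -0.33 (adjusted p = 0.053), and it was the 1 gene of the list called by DESeq2, while limma-voom called 0.

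Downstream of the ITAM, 27 of 28 kinases and effectors were tested, of which 3 were higher and 2 lower (median 0.037). *Cdc42*, a GTPase of the phagocytic cup, rose from 873 to 1046 CPM (log2 fold change 0.27, SE 0.057, adjusted p = 0.0035), and the adaptor *Lcp2* (SLP-76) rose from 266 to 314 CPM (0.25, SE 0.060, adjusted p = 0.0078). The phospholipase *Plcg2* fell from 346 to 269.6 CPM (-0.35, SE 0.095, adjusted p = 0.015). The remaining calls, named after their values were seen, were the adaptor *Sh3bp2* (0.26, adjusted p = 0.019) and the exchange factor *Vav1* (-0.25, adjusted p = 0.031). None of the 5 exceeded the 1.5-fold limit.

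Of 11 inhibitory effectors, all tested, none passed in edgeR (3 at an unadjusted p under 0.05, a share like that of all genes), 1 passed in DESeq2 and 0 in limma-voom, with a median of -0.020. The closest were *Ptpn6* (SHP-1), a phosphatase recruited by ITIM motifs (0.15, adjusted p = 0.088), *Pag1* (-0.17, adjusted p = 0.12) and *Dok2* (0.91, at 1.03 CPM in WT, adjusted p = 0.13).

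Among 16 regulators and targets of interferon gamma, 15 were tested, 2 were higher and 1 lower (median 0.098). *Ifngr1*, a chain of the interferon gamma receptor, was at 1710 to 2260 CPM in WT and at 1230.0 to 1491 CPM in homozygous mice, without overlap (log2 fold change -0.50, SE 0.069, edgeR adjusted p = 9.0e-05). The immunoproteasome subunit *Psmb9* rose from 54.2 to 68.5 CPM (0.34, SE 0.076, adjusted p = 0.0046). *Ciita*, the activator of MHC class II genes, was called at very low levels (0.19 and 0.93 CPM, log2 fold change 2.27, SE 0.76, adjusted p = 0.049).

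Markers of other cells were read to see what moved with the receptors. The summed level of 10 microglial markers was 65951 to 93812 CPM in WT, 61056 to 82022 CPM in heterozygous and 56128 to 65655 CPM in homozygous mice, and 6 of the 10 were lower in homozygous than in WT mice, with *Cx3cr1* at -0.51 (adjusted p = 0.00018). The part of this in the lower *Fcgr1* was not tested. In sorted bulk samples, fewer cells of a type and less RNA per cell cannot be told apart.

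*Fcgr4* is also a gene of monocytes. Of 8 monocyte markers, 5 were tested and 1 passed, *Ccr2*, which was at 3.68 to 5.70 CPM in WT and 7.85 to 20.2 CPM in homozygous mice (log2 fold change 1.28, adjusted p = 0.00081). The summed level of the list was 6.77 to 13.3 CPM in WT and 5.71 to 17.7 CPM in heterozygous mice. In homozygous mice it was 11.4 to 28.9 CPM. Its mean was 9.30 CPM in WT, 9.31 CPM in heterozygous and 19.2 CPM in homozygous mice. Among the homozygous mice, M4, with the highest *Fcgr4*, had a sum of 15.9 CPM. M5 and F5, with the next highest *Fcgr4* (16.06 and 16.04 CPM), had sums of 11.4 and 26.9 CPM. F4, with the lowest *Fcgr4*, had a sum of 14.7 CPM. M2, with the highest sum (28.9 CPM), had 12.1 CPM of *Fcgr4*. *Ly6c2*, another marker of the list, was at or below 1.02 CPM in every mouse. The part of monocytes in the higher *Fcgr4* was not tested beyond these values.

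Markers of other cell types differed in level. Of 8 neutrophil markers, 5 were tested and none passed in edgeR, DESeq2 or limma-voom or at an unadjusted p under 0.05, with sums of 2.64 to 39.6 CPM in WT and 2.34 to 87.2 CPM in homozygous mice. Of 9 border macrophage markers, 8 were tested and again none passed by any of these measures. Their sums were 8.05 to 38.0 CPM in WT and 6.57 to 42.1 CPM in homozygous mice, and *Mrc1* was listed at 0, as were all 6 mast cell markers. The B cell list summed to 628 to 789.8 CPM in WT and 505 to 876 CPM in homozygous mice, nearly all of it *Ighm* (690.5 and 683 CPM, adjusted p = 0.95), while *Cd79a* and *Ms4a1* had group means of at most 0.10 CPM in WT and homozygous mice. The astrocyte list summed to 235 to 268 CPM in WT and 231 to 310.3 CPM in homozygous mice, nearly all of it *Slc1a3*, with *Aldoc* lower (-1.61, adjusted p = 0.0062). Oligodendrocyte sums were 82.6 to 144.5 CPM in WT and 64.3 to 96.8 CPM in homozygous mice, with *Mbp* (-0.56, adjusted p = 0.040) and *Mobp* (-1.69, adjusted p = 0.022) lower. Endothelial sums were 37.4 to 69.8 CPM in WT and 27.1 to 52.3 CPM in homozygous mice, with *Pecam1* lower (-0.49, adjusted p = 0.021). The part of these cells in the receptor levels was not tested. Neuronal markers fell for 3 of 6 tested genes, among them *Snap25* (11.3 CPM in WT and 1.94 CPM in homozygous mice). Of 13 immediate-early genes tested, 12 were higher in homozygous than in WT mice by edgeR, while DESeq2 called 12 and limma-voom 5. That list summed to 8741 to 13286 CPM in the 4 mice of high *Fos*, 597 to 1011 CPM in the other 6 and 458 to 624.7 CPM in WT. The *Fcgr4* and *Fcgr1* values without those 4 mice stand above.

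Sequence shared between the receptors limits how far their counts can be separated. Of the 50-base stretches in the transcripts of *Fcgr3*, 9.58% also occur in *Fcgr2b*, and 2.92% of those of *Fcgr2b* occur in *Fcgr3* and 4.03% in genes other than the 6. No such stretch of *Fcgr1*, *Fcgr4*, *Fcer1g* or *Fcrls* occurs in another gene. The genes annotated across the receptors, *Gm38204* on the strand opposite to *Fcgr2b*, *Mir6546* in *Fcgr3* and *Gm26110* in *Fcgr4*, had mean levels of 0.0039 CPM or less, although counts without strand cannot separate *Gm38204* from *Fcgr2b*. With the counts of *Fcgr2b* and *Fcgr3* summed to 1 feature, the log2 fold change from WT to homozygous mice was 0.028 (edgeR adjusted p = 0.80).

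Genes near the receptors were read as well, since 3 of the IgG receptor genes are neighbours. Within 100 kb of both *Fcgr4* and *Fcgr3* lie *Cfap126* (log2 fold change from WT to homozygous 0.78, adjusted p = 0.29) and *Sdhc* (0.048, adjusted p = 0.67). The 5 tested neighbours of *Fcgr2b* had adjusted p-values from 0.059 (*Gm26620*) to 0.82 (*Gm9929*). Of 31 tested neighbours of all 6 genes, 4 were higher and 1 lower, where 5.66% of all genes tested were higher and 7.09% lower. Near *Fcgr1* these were the histone gene *Hist2h2aa2* (1.68, adjusted p = 0.027), which is uncertain because *Hist2h2aa1* is a near-identical copy, and *Gm20634* (1.14, adjusted p = 0.0076). Near *Fcer1g* they were *Usp21* (0.19, adjusted p = 0.041) and *Pcp4l1* (-2.71, adjusted p = 0.010), and near *Fcrls* it was *Gm10705* (1.10, adjusted p = 0.031).

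For each receptor, the genes whose level went most closely with it from mouse to mouse were ranked. The measure was Pearson's r of log2 CPM over 23 mice, after removal of genotype and sex. Apart from scaling to CPM, no difference between mice in sort or library depth was removed. These correlations are descriptions. For *Fcgr4* they were *Chst1* (r = 0.80), *Ifit2* (0.78), *Cdc6* (0.76), *Knl1* (0.75) and *C3ar1* (0.73). Of these, *Cdc6* and *Knl1* were at low levels, with means of 1.01 and 0.96 CPM over all mice. Although genotype had been removed, *Chst1*, a sulfotransferase, was also higher in homozygous than in WT mice (log2 fold change 1.56, adjusted p = 0.0020), as were *Ifit2*, an interferon-induced gene (0.88, adjusted p = 0.026), and *C3ar1*, the receptor of complement C3a (0.51, adjusted p = 0.0078).

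For *Fcgr1* the closest were *Tex261* (r = 0.82), *Npc1* (0.77), *Man1a2* (0.76), *Sfxn2* (0.75) and *Slc24a3* (0.74). *Npc1*, the lysosomal cholesterol transporter, was at 229.6 ± 24.9 CPM in WT, 236 ± 23.1 CPM in heterozygous and 127 ± 15.2 CPM in homozygous mice (log2 fold change -0.85, adjusted p = 1.0e-06). For *Fcgr2b* they were *Shisa5*, *Enpp4* and *Cnpy4* (each 0.76) and *Cd82* (0.74). For *Fcgr3* they were *Nim1k* (0.71), *Otulinl* (0.70), *Il10rb*, *Asah1* and *Aoah* (each 0.69). Of these, *Nim1k* and *Aoah* were at low levels, with means of 0.74 and 0.59 CPM over all mice.

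For *Fcer1g* the closest were *Il4i1* and *B2m* (each 0.87), *Gnas* (0.85), *Lmo2* and *F11r* (each 0.83). *Fcrls* went with *Tmem144* (0.86), its relative *Fcrl1* (0.81), *Slc30a7* (0.76), *Oscp1* (0.73) and *Ldhb* (0.72). Homozygous F4 had both the lowest *Fcrls* (1103 CPM) and the lowest *Fcrl1* (7.02 CPM) of all mice. No r was computed without F4, so how far these values rest on that mouse was not tested. Among the 6 genes themselves, the highest values were between *Fcgr1* and *Fcgr3* (0.59), *Fcgr2b* and *Fcrls* (0.58) and *Fcgr4* and *Fcrls* (0.55), whereas *Fcer1g* was at -0.20 with *Fcgr4* and -0.22 with *Fcrls*.

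**Figure D5:**
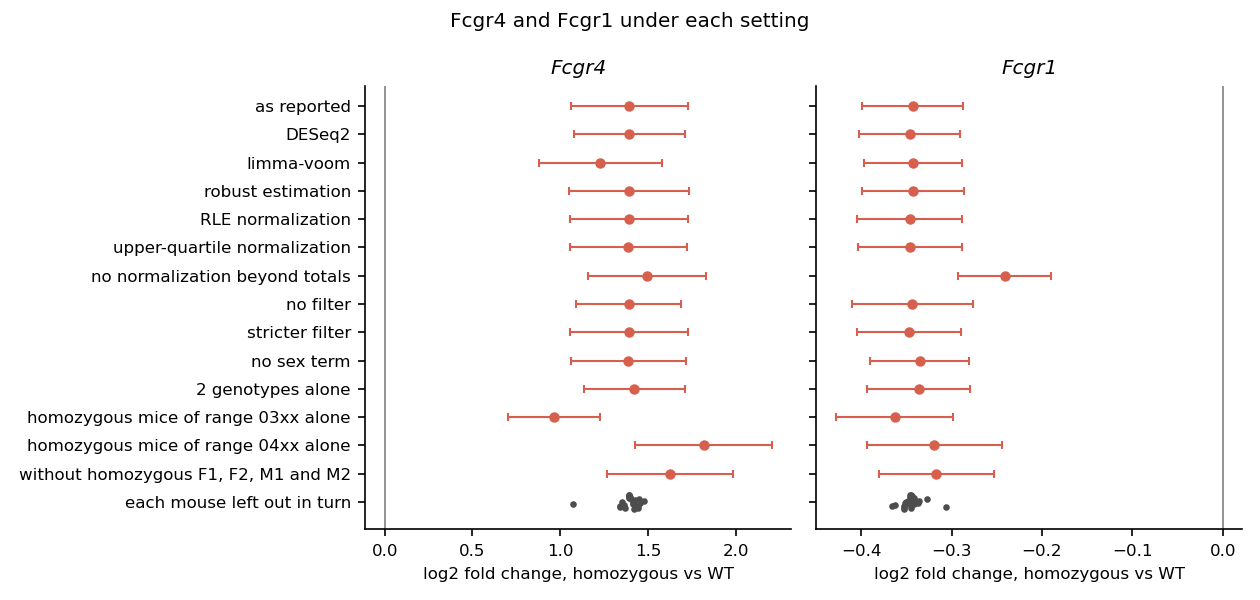
Log2 fold change from WT to homozygous mice of *Fcgr4* (left) and *Fcgr1* (right) under each setting of the analysis, with the SE as bars and 1 point for each mouse left out in turn in the bottom row. All points of *Fcgr4* lie above 0, between 0.97 and 1.82, and all of *Fcgr1* below 0, between -0.37 and -0.24.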

How the data were processed

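Microglia of 23 mice were sorted by flow cytometry, and RNA was read single-end from SMARTer v4 cDNA and Nextera XT libraries, which do not mark strand. The authors aligned reads with OSA4 to mm10 and estimated expected counts per Ensembl R84 gene with RSEM. The deposited expected counts were not normalized. Of the values, 82.165% were whole, and the treatment of reads shared by paralogs was not given in the sources used here. Symbols were matched for 42929 of the 43411 identifiers.

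Counts were rounded, filtered with filterByExpr by genotype (12908 genes kept), scaled by TMM and tested with edgeR 4.0.16 (quasi-likelihood; genotype and sex; 3 genotypes in 1 fit; Benjamini-Hochberg over all genes) in R 4.3.3. The study's limits, adjusted p below 0.05 and 1.5-fold, were used. Approximate intervals are the log2 fold change ± 1.96 SE. They describe the uncertainty of the group difference, estimated from the spread between mice, and not the range of single mice. The fit was also run on simulated counts with the same spread set for every gene and no outlying mice. That run does not cover a gene as variable between mice as *Fcgr4*. CPM used TMM-scaled totals, and CPM per kb the exon length and positions of GENCODE vM21 (GRCm38). Alternatives were DESeq2 1.42.0, limma-voom (limma 3.58.1), other scalings and filters, no sex term, 2 genotypes alone, animal-number ranges, mice left out, summed paralogs and a 1.2-fold test.

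The 6 genes and the lists were chosen with earlier results of these data known. Named are the 6 genes, tested relatives, partners and adaptors, the 3 genes of smallest p in other lists, the 5 most alike genes per receptor, called neighbours within 100 kb, *Bin1* and *Fos*. Microglial and other markers, *Ccr2*, *Snap25*, *Sh3bp2* and *Vav1* among them, were named after their values were seen. Some values for genes that these rules would name are not reported here.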

Additional observations from a re-analysis of the deposited data

Results flagged for a closer look

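In 18 groups of values (6 genes in 3 genotypes), a mouse that lay far from the others of its group was looked for. Dixon's test was used on the logarithm of CPM, and by chance it marks about 1 group in 20. The gaps and ranges below are on that log scale, and on CPM itself they differ. The WT mouse M1 had the highest *Fcgr1* of all mice, 438 CPM, with a gap to the next WT mouse of 0.66 of the group's range (critical value 0.625). Without that mouse the log2 fold change of *Fcgr1* from WT to homozygous mice was -0.31 by edgeR (adjusted p = 0.0021). The homozygous mouse F4 had the lowest *Fcrls*, 1103 CPM, with a gap of 0.50 of the range (critical value 0.466), and without it the log2 fold change of *Fcrls* was 0.14 (adjusted p = 0.59).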

How the results depend on the processing

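Between homozygous and WT mice, *Fcgr4* (log2 fold change 0.97 to 1.82 over 14 alternatives, 1.07 to 1.48 over 23 fits without 1 mouse) and *Fcgr1* (-0.36 to -0.24, and -0.37 to -0.31) kept their directions, and each passed except *Fcgr1* against a 1.2-fold change (-0.34), where 0 of the 6 genes were lower and 183 genes passed in place of 1645. With library totals alone, 3 of the 6 genes were higher, as *Fcgr2b* (0.23) and *Fcer1g* (0.21) passed; the median of all genes moved from 0.012 to 0.11 and the higher genes from 730 of 1645 called to 1772 of 2340. The genes called were 806 with the 04xx mice, 1062 without F1, F2, M1 and M2, and 1060 (without WT M1) to 1729 with 1 mouse left out. Against heterozygous mice, 1 of the 6 genes was higher in place of 3 with no filter, no sex term, 2 genotypes alone, the 03xx or the 04xx mice, or the 1.2-fold test, 2 by limma-voom, with upper-quartile scaling or without F1, F2, M1 and M2, and 1 to 3 with 1 mouse left out (1 without heterozygous F2, M3 or M4, homozygous F3, F5 or M2, WT M3 or M4). *Fcgr1* missed the limit with the 04xx mice (-0.22) and the 1.2-fold test (-0.25), leaving 0 lower. Genes called there were 1433 (04xx), 1898 (without the 4 mice) and 446 (1.2-fold) in place of 2936, 2284 to 3024 with 1 mouse left out, and the split was 1428:1508 or, with totals alone, 2173:1100, where *Fcgr3* passed (0.19). Heterozygous against WT, DESeq2 called 3 genes and edgeR 0 to 1 with 1 mouse left out (1 without heterozygous M3). Uncalled differences changed sign for *Fcgr3* (homozygous against WT -0.011 with 04xx, -0.0023 without the 4 mice, -0.017 to 0.033 with 1 mouse left out), *Fcrls* (-0.019 by limma-voom, -0.063 with 03xx, -0.027 to 0.14) and *Fcgr4* heterozygous against WT (-0.038 by limma-voom, -0.19 with 2 genotypes alone, -0.092 with 03xx, -0.089 to 0.27). The causes were not tested. No paired analysis was possible because the replicate numbers do not pair mice of different groups. Depth limits *Fcgr4* most, at 19 to 479 counts per mouse.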

Other observations

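Within the heterozygous group, the 3 males were below all 4 females for 4 of the 6 genes. *Fcgr1* was at 322 to 365 CPM in males and 379.7 to 402 CPM in females, *Fcgr2b* at 273 to 303 and 346 to 362 CPM, *Fcgr3* at 1565 to 1678 and 1738 to 1916 CPM, and *Fcrls* at 2049.5 to 2287 and 2671 to 3176 CPM. *Fcgr4* and *Fcer1g* overlapped between the sexes. Of all 12908 genes tested, 5.5% had every heterozygous male below every heterozygous female. The summed microglial markers split the same way, with 61056 to 69195 CPM in the males and 73089 to 82022 CPM in the females. This split was noticed in the values and was not tested, nor was the part of the microglial markers in it. Across all 3 genotypes the sex term passed for none of the 6 genes.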
